A study of Arabidopsis thaliana with 4 samples.

Results

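MYB genes encode transcription factors that bind DNA through repeats of the MYB domain, and in plants most of the numbered genes carry the R2R3 form with a pair of such repeats. The family is known in Arabidopsis thaliana for control of phenylpropanoid pigments, glucosinolates, lignin and suberin, of epidermal and organ patterning, of pollen and seed development, and of responses to drought, cold and abscisic acid (ABA). Members often act in a narrow set of cells or only under stress. The 123 genes described here are those of 27444 protein-coding genes on the nuclear chromosomes whose symbol or synonym is MYB followed by a number, apart from a pair not analysed here.

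The data are DNase I-seq peak lists, in which small fragments released by nearby DNase I cuts mark accessible DNA, from whole 7-day-old seedlings of 4 natural accessions. Sets of 4 values below are given in the order Bur-0, then Bay-0, then Est-1, then Tsu-1. Days had 16 h of light at 22°C, and nights were at 20°C. All 4 groups carried the INTACT line labelled UBQ10:NTF::ACT2:birA, a tagging system for capturing nuclei through biotin, here under promoters active in most cells, and their background is labelled Col-0 even though each title names a different accession. For Tsu-1, the name on the sample labels, the series text has Tsu-0. With 1 library for each accession there are no replicates, and no tests were made.

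The lists held 25298, 28821, 29699 and 27388 nuclear peaks, nearly all 150 bp wide, and sequencing depth is unknown. All 5 photosynthetic shoot marker genes and 4 of 5 root marker genes had peaks in every accession, as did 3 of 5 epidermis and stomata markers and 2 of 5 vascular markers (SUC2 and ATHB-8). The other vascular markers (APL, IRX3 and XCP1) had none in any. In the gene window defined below, 53.7% of all protein-coding genes had peaks in every accession and 26.8% in none. A whole seedling mixes cell types, so openness in few cells and weak openness in many cells cannot be told apart.

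A gene was counted as open in an accession where at least 1 bp of a peak fell in a window around one of its ends. The window reached 1000 bp out of the gene and 200 bp into it. A peak could count for several genes, and the MYB genes whose peaks were all shared in this way are listed below. Of the 123 MYB genes, 74 (60.2%, interval 50.9 to 68.9) were open in all 4 accessions, beside 53.7% of all protein-coding genes. This order turned in a narrower window, 500 bp out of the gene and 100 bp into it, where 43 (35.0%, interval 26.6 to 44.1) were open in all 4, beside 45.3%. In the main window another 21 (17.1%) were open in 1 to 3 accessions, beside 19.5%, and 28 (22.8%) in none, beside 26.8%. Intervals are 95% exact (Clopper-Pearson) intervals over genes, which are not replicates, and cover counting error only. In the main window all 3 shares lay within 10 percentage points of those of all genes, higher for all 4 accessions and lower for the others.

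By accession, 80 MYB genes were open in Bur-0 (65.0%, beside 59.2% of all genes) and 81 in Tsu-1 (65.9%, beside 62.5%). Bay-0 had 90 (73.2%, beside 67.1%) and Est-1 had 87 (70.7%, beside 67.9%). The order of the accessions followed the length of their lists except that Bay-0 stood above Est-1. The strength of each peak is given below as a rank, the percentile of the authors' signal within its list, with 100 at the top, and coordinates are those of the TAIR10 build. The median rank of the best peak over open MYB genes was 57.0, 50.9, 59.4 and 61.7, beside 52.5, 54.3, 53.6 and 53.1 over all open genes. Quartiles ran from 27.4 to 34.7 at the bottom and from 81.5 to 82.5 at the top, so MYB genes filled nearly the whole range of strengths.

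**Figure D1:**
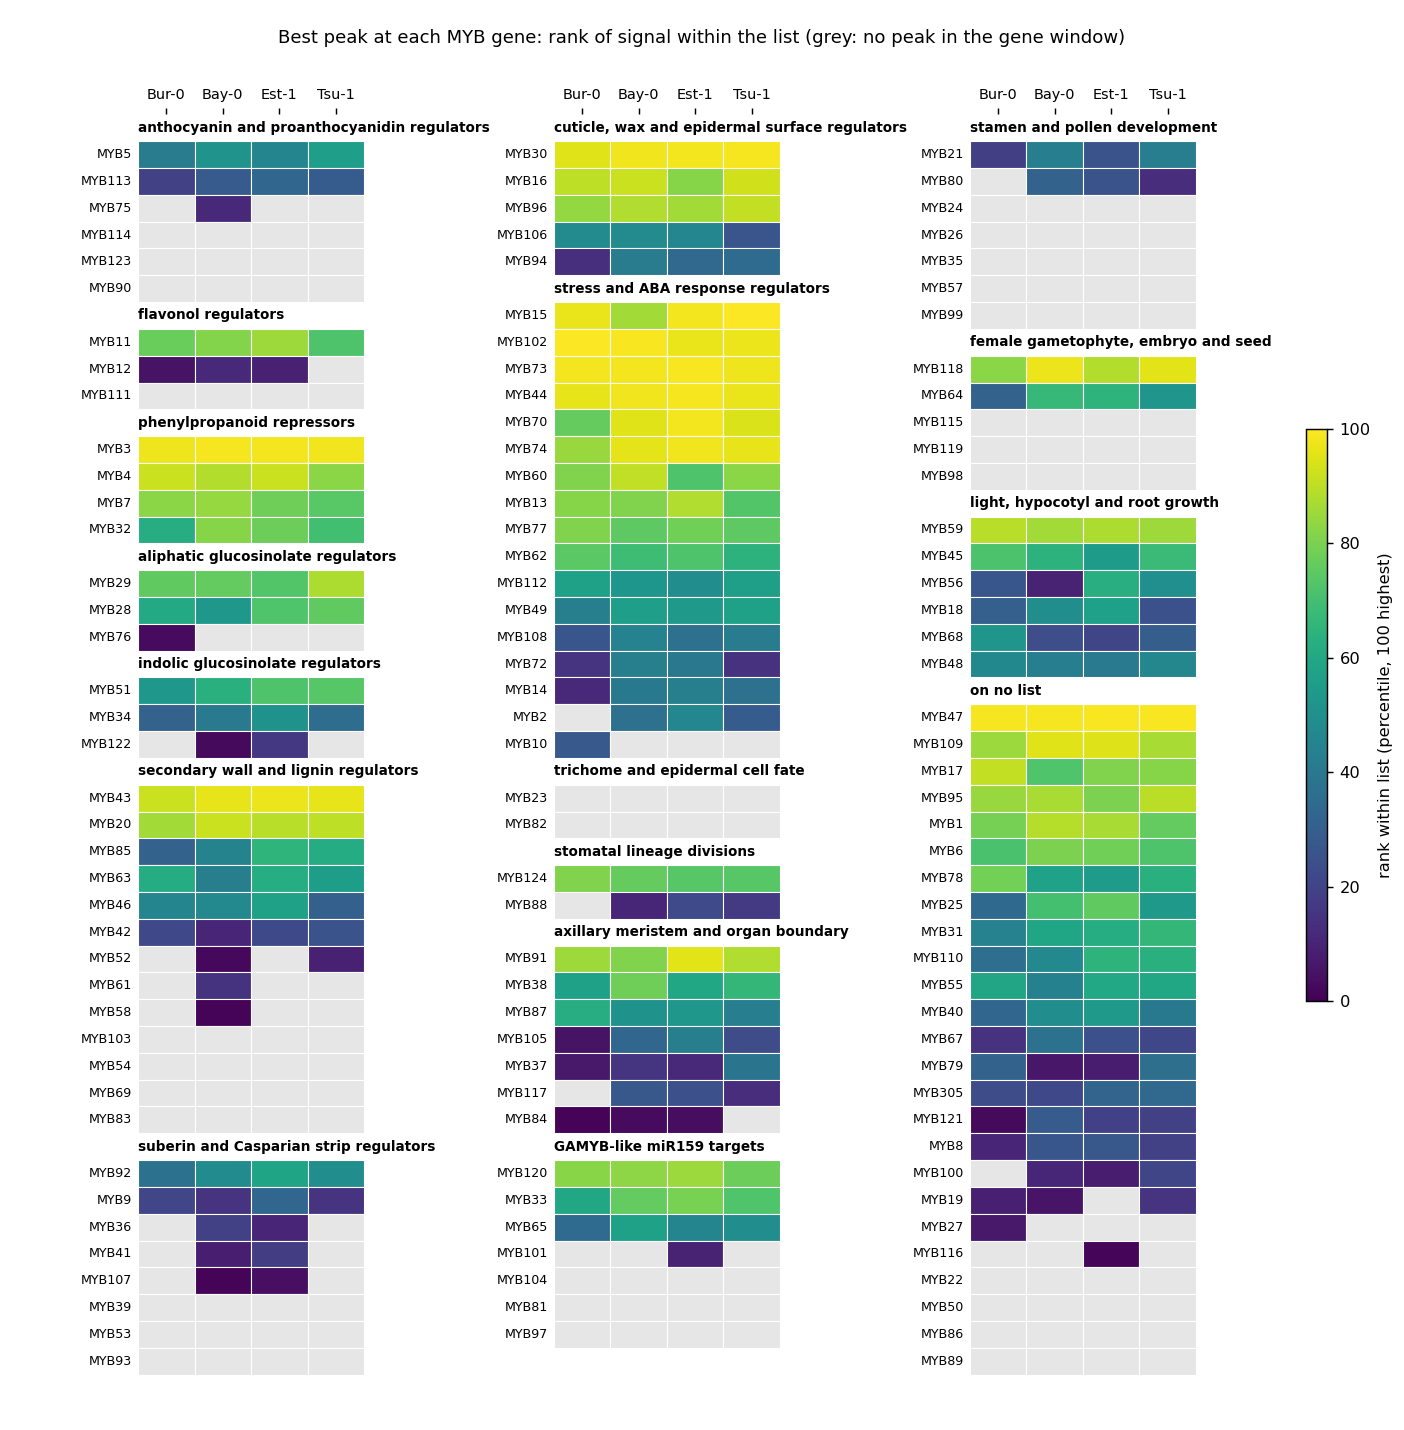
Rank of the best peak (percentile of signal within the list, colour) at each of the 123 MYB genes, with 1 column per accession and genes grouped by known role; grey marks no peak in the gene window. MYB20, which is on 2 lists, is drawn under secondary wall and lignin. MYB73, MYB3 and MYB30 lie above 95 in every column, and 5 of the 7 stamen and pollen genes are grey throughout.

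Genes of stress and ABA responses were the most widely open of the larger role lists. Of 18 members, 16 were open in all 4 accessions (88.9%, beside 53.7% of all genes), and the other 2, MYB2 and MYB10, were open in 3 and in 1. The role lists were drawn from textbook functions. Of the 98 genes on them 57 were open everywhere (58.2%), and of the 25 genes on none 17 were (68.0%). MYB73, MYB70, MYB44 and MYB77 are close relatives linked to salt, auxin and ABA responses. At MYB73 the best peak ranked 98.2, 98.4, 99.2 and 97.3, in a region on chromosome 4 (17539821 to 17539970) about 594 bp outside the gene. MYB44 stood as high, at 96.4, 97.8, 98.6 and 96.5 over the 4 lists, with its strongest region on chromosome 5 (26852921 to 26853190). MYB70 was lower in Bur-0, at 76.3, than in the other 3 lists, at 95.3, 98.2 and 94.2. MYB77 varied little, with 80.9 in Bur-0 as its highest rank.

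MYB102, a gene induced by wounding and osmotic stress, ranked 99.4, 99.0, 96.8 and 97.2. That region lay 904 bp outside the gene on chromosome 4 (11417181 to 11417410), and a second one 114 bp outside (11418001 to 11418170) was weaker in all 4 lists, at 37.9 to 69.4. MYB74, a relative of MYB102, ranked 84.5, 96.0, 97.7 and 96.3. MYB15, a regulator of cold responses and of defence lignin, ranked 96.8, 86.3, 98.4 and 99.6 in a region 144 bp outside the gene (chromosome 3, 8308981 to 8309150). Its relatives MYB13 and MYB14 were also open in all 4 lists, MYB13 between 72.9 and 88.1 and MYB14 between 11.1 and 42.8, so the 3 genes differed in strength in every list. The lowest rank of MYB14, in Bur-0, came from another region and rested on the edge of the window. The region that set its other ranks (chromosome 2, 13289321 to 13289650) ranked 38.5, 40.5, 42.8 and 36.9, and the Bur-0 peak there lay beyond the window. MYB60, a gene of guard cells and stomatal opening, ranked 71.9 to 90.6.

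In the narrower window 10 of the 18 stress genes were open in all 4 accessions, beside 45.3% of all genes and 35.0% of MYB genes. The list was thus closer to the background than in the main window, though still above it. With only the stronger 50% of each list 11 of the 18 were, beside 25.4% of all genes and 30.9% of MYB genes. Further members include MYB62, a gene of phosphate starvation, at 74.3, 68.9, 72.1 and 64.1, and MYB72, a gene of iron deficiency and root immunity, at 15.1, 42.9, 39.9 and 14.3. Its partner in iron deficiency, MYB10, was counted only in Bur-0, and this rested on the edge of the window. A single region on chromosome 3 (4076581 to 4076830) was called in all 4 lists, at ranks of 27.6, 57.4, 62.6 and 32.5, and the peaks of the other 3 lists began 17, 37 and 17 bp beyond the window. MYB2, an ABA-responsive gene, was counted in all but Bur-0, at 36.9, 45.8 and 28.6, and the Bur-0 peak of the same region (chromosome 2, 19377181 to 19377410; rank 5.71) fell 13 bp short of the window, inside the gene.

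All 4 repressors of phenylpropanoid synthesis, MYB3, MYB4, MYB7 and MYB32, were open in all 4 accessions, beside 53.7% of all genes. MYB3 ranked 97.6, 98.7, 98.2 and 97.7 in a region 628 bp outside the gene (chromosome 1, 8005361 to 8005510), and all 3 of its regions were called in every list. MYB4, which represses cinnamate hydroxylation and responds to UV-B, ranked 91.9 in Bur-0, 88.4 in Bay-0 and 82.7 in Tsu-1, with Est-1 level with Bur-0, and its strongest region (chromosome 4, 18053421 to 18053610) lay inside the gene near its lower-coordinate end. MYB7 ranked 73.9 to 84.3 and MYB32 62.3 to 82.0.

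Of 6 regulators of anthocyanins and proanthocyanidins, 2 were open in all 4 accessions (33.3%, beside 53.7% of all genes). Another 1 was open in a single accession and 3 in none (beside 26.8%). MYB5, which acts in the seed coat and trichomes, ranked 41.1, 51.3, 45.5 and 55.7. MYB113, an anthocyanin activator, ranked 19.4, 28.3, 32.5 and 28.6 in a single region (chromosome 1, 24755321 to 24755470). MYB114 lies next to MYB113 on the chromosome, and MYB90 next to MYB114. Neither of these, also anthocyanin activators, had a peak in its window in any list. The nearest peaks to MYB114 lay 707 to 747 bp beyond its window, and those to MYB90 lay 359 to 599 bp beyond.

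MYB75, also known as PAP1 and the best-known anthocyanin activator, was counted only in Bay-0, at rank 11.4, and for Est-1 and Tsu-1 this again rested on the edge of the window. The peaks of Est-1 and Tsu-1 in the same region (chromosome 1, 21233681 to 21233910; ranks 18.1 and 27.0) lay 6 bp beyond the window, inside the gene, and Bur-0 had no peak in that region. All 4 lists also held a peak beyond the outer limit of the window at the lower-coordinate end of MYB75, ranking 51.1, 39.0, 45.8 and 57.5. With a window over the whole gene plus 2000 bp at either end, 5 of the 6 pigment genes were open in all 4 accessions, beside 63.3% of all genes. The exception was MYB123 (TT2), the activator of seed coat proanthocyanidins, whose nearest peak lay 19359 bp beyond its window in Bur-0, 13352 in Bay-0, and 13312 in Est-1 and Tsu-1.

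The 3 flavonol activators, which turn on the same early steps of flavonoid synthesis, differed from each other. MYB11 was open in all 4 accessions at 77.3, 81.3, 85.5 and 71.9. MYB12 had weak calls in Bur-0, Bay-0 and Est-1, at 4.99, 11.4 and 9.17, and none in Tsu-1, whose nearest peak lay 563 bp beyond the window. MYB111 had no peak in its window in any list, and the nearest peaks lay 662 to 702 bp from it. Each list held 2 peaks inside the gene, between the windows at its ends. With the wider window, which covers the whole gene, all 3 were open in every accession, beside 63.3% of all genes.

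Both sets of glucosinolate activators held 2 genes open in all 4 accessions (66.7%, beside 53.7% of all genes) and 1 called in few. Among the activators of aliphatic glucosinolates, which are made from methionine, MYB28 ranked 60.4, 53.1, 72.4 and 75.4. The rank of MYB28 came from different regions, since Bay-0 had no call in the region that was strongest within the window in the other 3 lists (chromosome 5, 24691721 to 24691870). In Bay-0 the best peak stood at the other gene end (24688241 to 24688490), where Tsu-1 ranked 53.6 and Est-1 and Bur-0 ranked 29.4 and 18.1. A peak beyond the window, on the lower-coordinate side, ranked higher in all 4 lists, at 81.6, 81.4, 74.4 and 84.6. MYB29 ranked 75.6, 76.0, 73.0 and 87.7 in a region 114 bp outside the gene (chromosome 5, 2446461 to 2446650).

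MYB76, the direct neighbour of MYB29 with a gap of 1442 bp between the genes, was counted only in Bur-0, at rank 2.96, and peaks of the other 3 lists lay 13, 33 and 113 bp beyond its window. Among the activators of indolic glucosinolates, made from tryptophan, MYB51 ranked 53.5, 63.3, 72.1 and 73.6. MYB51 had 5 regions, 3 of them in all 4 lists. MYB34 ranked 31.5, 41.0, 50.9 and 35.5, and MYB122 was called in Bay-0 and Est-1 alone, at 2.56 and 16.3.

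Of 13 regulators of the secondary wall and lignin, 6 were open in all 4 accessions (46.2%, beside 53.7% of all genes), 3 in 1 or 2, and 4 in none (beside 26.8%). The master switches of secondary wall formation, MYB46 and MYB83, which act redundantly, differed. MYB46 ranked 45.4, 46.9, 57.2 and 30.3 (chromosome 5, 4062001 to 4062210), whereas MYB83 had no peak in its window, with own peaks 124 to 164 bp beyond it in the 4 lists. The lignin activators MYB58 and MYB63 also differed, MYB63 at 42.9 to 62.1 in all 4 lists and MYB58 at 1.03 in Bay-0 alone.

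The strongest wall genes were MYB43 and MYB20, relatives that act in lignin synthesis. MYB43 ranked 91.8, 96.4, 97.2 and 96.4 (chromosome 5, 5437141 to 5437290; 950 bp outside the gene). MYB20 ranked 86.1, 91.8, 89.3 and 90.1 in a region 96 bp outside (chromosome 1, 24676901 to 24677150). Their relatives MYB85 and MYB42 were weaker, MYB85 at 31.5 to 64.9 and MYB42 at 10.2 to 25.6. MYB103, MYB54 and MYB69 had no peak in their windows in any list. MYB52 was called in Bay-0 and Tsu-1 at 2.09 and 9.14, and MYB61, which acts in stomata, seed mucilage and wall formation, had 2 weak peaks in Bay-0 alone, the better at rank 14.5. Within the narrower window 1 of the 13 was open in all 4 accessions, beside 45.3% of all genes, and with only the stronger 50% of each list 2 were, beside 25.4%.

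Of 8 regulators of suberin and the Casparian strip, barriers of the root endodermis, MYB92 and MYB9 were open in every accession. This was 2 of 8 (25.0%), beside 53.7% of all genes. MYB92 ranked 37.8, 47.8, 58.3 and 48.5, and MYB9 ranked 20.9, 15.1, 33.0 and 15.2. MYB36, which drives Casparian strip formation, was called in Bay-0 and Est-1 at 19.2 and 10.2, and MYB41 and MYB107, activators of suberin, in the same lists at up to 17.7. MYB39, MYB53 and MYB93 had none. The count for these genes was 4 with the wider window (beside 63.3% of all genes) and 0 with the narrower one (beside 45.3%).

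All 5 regulators of the cuticle, wax and the shoot epidermal surface were open in all 4 accessions, beside 53.7% of all genes. MYB30, an activator of very-long-chain fatty acid synthesis and of the hypersensitive response, ranked 95.1, 97.8, 98.4 and 98.8 in a region 76 bp outside the gene (chromosome 3, 10910981 to 10911130). Its windows held 6 regions, the most of the 123 genes. MYB96, an activator of wax synthesis under drought, ranked 83.7, 88.2, 86.2 and 91.0, and all 3 of its regions were in every list. Its wax relative MYB94 was weaker, at 13.4, 41.6, 33.4 and 34.7.

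MYB16 and MYB106, which shape epidermal cells and the cuticle, differed in the same way, MYB16 at 82.0 to 92.9 and MYB106 at 26.3 to 47.6. When each peak was counted only for the nearest gene end, and within the narrower window, 3 of the 5 surface genes were open in all 4 accessions, beside 39.4% and 45.3% of all genes. MYB23 and MYB82, which act in trichome formation, had no peak in their windows in any list, with the nearest peaks 739 to 4439 and 4071 to 4771 bp beyond their windows.

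**Figure D2:**
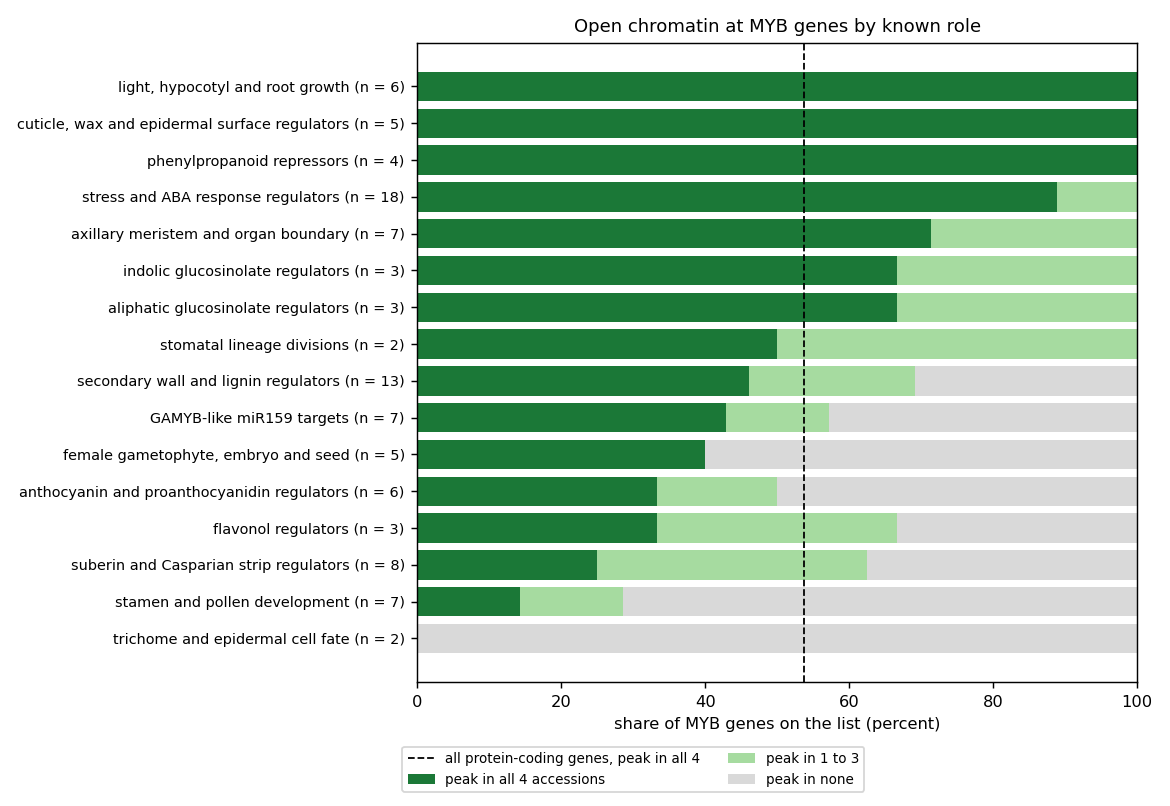
Share of MYB genes on each role list (percent, bars) with a peak in all 4 accessions, in 1 to 3 and in none, with the number of genes in brackets. The dashed line marks 53.7%, the share of all protein-coding genes with a peak in all 4. Stress and ABA response genes reach 88.9%, secondary wall genes 46.2% and stamen genes 14.3%.

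Of 7 genes of axillary meristems and organ boundaries, 5 were open in all 4 accessions (71.4%, beside 53.7% of all genes) and 2 in 3. The strongest was MYB91, better known as AS1, a repressor of meristem genes in leaves, at 85.3, 81.1, 95.4 and 87.9. Its region stood 876 bp outside the gene (chromosome 2, 15784261 to 15784450). Among the RAX genes, which promote axillary meristems, MYB38 (RAX2) ranked 56.7, 78.0, 59.4 and 66.3, and MYB37 (RAX1) 6.47, 15.6, 11.3 and 38.3. MYB84 (RAX3) was called in all but Tsu-1, at 1.11, 3.05 and 3.28.

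The organ boundary genes MYB105 and MYB117, known as LOF2 and LOF1, also differed. MYB105 was called in every list, at 4.99, 32.6, 42.8 and 22.7. MYB117 was called in all but Bur-0, at 27.3, 24.4 and 12.7, and the nearest Bur-0 peak lay 1567 bp beyond its window. MYB124 (FLP) and MYB88 jointly limit divisions of the stomatal lineage. MYB124 ranked 81.2, 76.2, 73.7 and 73.6, and MYB88 was called in all but Bur-0, at 10.8, 22.3 and 16.8.

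All 6 genes of the list for light, hypocotyl and root growth were open in all 4 accessions, beside 53.7% of all genes. MYB59, a gene of root growth and cell cycle control, ranked 89.3, 86.1, 87.5 and 85.4 (chromosome 5, 24083601 to 24083770). MYB45 ranked 71.6, 64.1, 54.7 and 67.7, and MYB18 (LAF1), a factor of far-red light signalling, 24.9 to 56.4. MYB68 was counted in every list at 20.7 to 52.1, although none of its 3 regions was in all 4. With only the stronger 50% of each list, 2 of the 6 growth genes were open in all 4 accessions, beside 25.4% of all genes.

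Of 7 stamen and pollen genes 1 was open in all 4 accessions (14.3%, beside 53.7% of all genes) and 5 in none (beside 26.8%). Among these 5 were MYB24 and MYB57, jasmonate-dependent stamen regulators, MYB26, needed for anther opening, and MYB35 (TDF1), a tapetum regulator. MYB21, which acts with MYB24 and MYB57, was called in every list, at 18.7, 42.5, 25.6 and 41.8. MYB80, which acts in the tapetum, was called in all but Bur-0, at 30.9, 25.6 and 12.7, and all of its peaks also fell in the window of another gene. The median space to the neighbouring genes was 2049 bp for this list, the smallest of the 16 lists, beside 5624 bp for the family, and the part of spacing in the count was not tested.

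Of 7 GAMYB-like genes, targets of the microRNA miR159, 3 were open in every accession (42.9%, beside 53.7% of all genes). MYB33, which acts redundantly with MYB65 in anthers and in growth, ranked 59.6, 76.0, 79.5 and 72.5, and MYB65 ranked 34.4 to 57.0. MYB120, a pollen tube gene, ranked 82.3, 83.2, 84.9 and 77.7, where the Bur-0 peak lay directly beside the region shared by the other 3 lists. The other pollen tube genes, MYB97 and MYB101, had no call and a single Est-1 call at 9.71, and MYB81 and MYB104, neighbours on chromosome 2, had none. Of 5 genes of the female gametophyte, embryo and seed, 2 were open in all 4 accessions (40.0%, beside 53.7% of all genes). MYB98, MYB119 and MYB115 had no call. MYB118, which acts in endosperm and embryo programmes, ranked 82.5, 97.0, 88.6 and 95.6, and MYB64, a female gametophyte gene, 31.5, 66.9, 64.5 and 52.1.

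By the lowest of its 4 ranks MYB47, which is on no role list, stood first among the MYB genes. It ranked 98.7, 98.7, 99.1 and 99.2 in a region 332 bp outside the gene (chromosome 1, 6453501 to 6453690), flanked by another 2 regions held in all 4 lists. It was first in no single list, where MYB102 (Bur-0 and Bay-0), MYB73 (Est-1) and MYB15 (Tsu-1) ranked higher. By the lowest rank it was followed by MYB3, MYB73, MYB102, MYB44, MYB30, MYB43, MYB15, MYB20 and MYB59. Of the 74 genes open everywhere, 7 (9.46%) ranked above 90 in every list, beside 7.33% of all such genes, and 17 (23.0%) ranked below 50 in every list, beside 24.8%. These shares lay near those of other open genes.

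**Figure D3:**
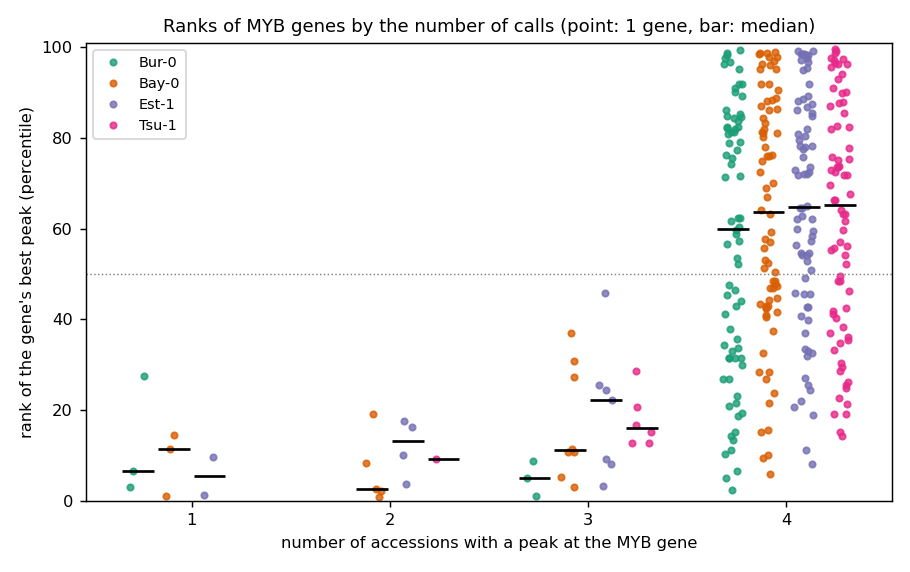
Rank of the best peak (percentile, vertical axis) of each MYB gene against the number of accessions with a peak at it (horizontal axis), with 1 point per gene and accession and a bar at the median of each accession. All points of genes called in 1 to 3 accessions lie at or below 45.8, and genes called in all 4 span nearly the whole range.

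MYB genes called in only some accessions had weak peaks wherever they were called. All 42 ranks at the 21 genes with 1 to 3 calls were below 50, with a median of 10.8 and a highest value of 45.8 (MYB2 in Est-1), beside a median of 15.1 and 91.5% below 50 over all genes called in 1 to 3 accessions. Of the 42 absent calls at these genes, 14 (33.3%) had a peak of the same accession within 300 bp of the window. The same share over all genes was not computed, so it cannot be read as a trait of MYB genes. Genes called in exactly 3 accessions numbered 8 (6.50%, beside 8.44% of all genes), and the list without the call was Bur-0 at 5 of them, beside 58.8% of all such genes. Tsu-1 lacked the call at 2 (beside 26.4%), Est-1 at 1 (beside 7.26%) and Bay-0 at 0 (beside 7.56%). Bur-0 lacked MYB2, MYB80, MYB88 and MYB117, described above, and MYB100, which ranked 10.8, 8.05 and 20.6 in the other lists. Tsu-1 lacked MYB12 and MYB84. Est-1 lacked MYB19, which ranked 8.88, 5.25 and 15.2 in the other lists.

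Genes called in exactly 1 accession also numbered 8 (6.50%, beside 5.63%). Bur-0 alone called MYB10, MYB27 and MYB76, Bay-0 alone MYB58, MYB61 and MYB75, and Est-1 alone MYB101 and MYB116. For MYB10, MYB75 and MYB76 another accession had a peak within 17 bp of the window, as given above. MYB27 ranked 6.47 and MYB116 1.24. The nearest peaks of the other lists to MYB116 lay 649 bp beyond the window in Bay-0, 669 in Tsu-1 and 11383 in Bur-0.

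Among the genes open in all 4 accessions, ranks moved with the accession to a similar degree as for other genes. The median difference between the highest and the lowest rank of a gene was 16.8 for MYB genes and 17.2 for all genes. Across genes, ranks of 2 accessions had Spearman correlations of 0.90 to 0.939 over 75 to 85 MYB genes called in both, beside 0.835 to 0.915 over all genes. Genes are not replicates and the values share the strength of each site and the libraries, so these are descriptions. The lowest of a gene's 4 ranks was in Bur-0 for 36 of 74 genes (48.6%), beside 45.1% of all genes.

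The widest difference was at MYB56, known as BRAVO and linked to the quiescent centre of the root, which ranked 26.8, 9.54, 62.8 and 49.5. All 4 peaks of MYB56 stood in the same 150 bp on chromosome 5 (5879601 to 5879750), so the lists differed in strength and not in place. All 4 also fell in the window of another protein-coding gene. MYB25 ranked 33.7, 70.0, 75.7 and 54.2, in a region 76 bp outside the gene (chromosome 2, 16647541 to 16647730). MYB105 and MYB64, given above, were lowest in Bur-0, as was MYB85 at 31.5, 44.8, 64.9 and 61.7, and MYB37 was highest in Tsu-1. With 1 library per accession, whether such differences exceed the spread between libraries is unknown.

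**Figure D4:**
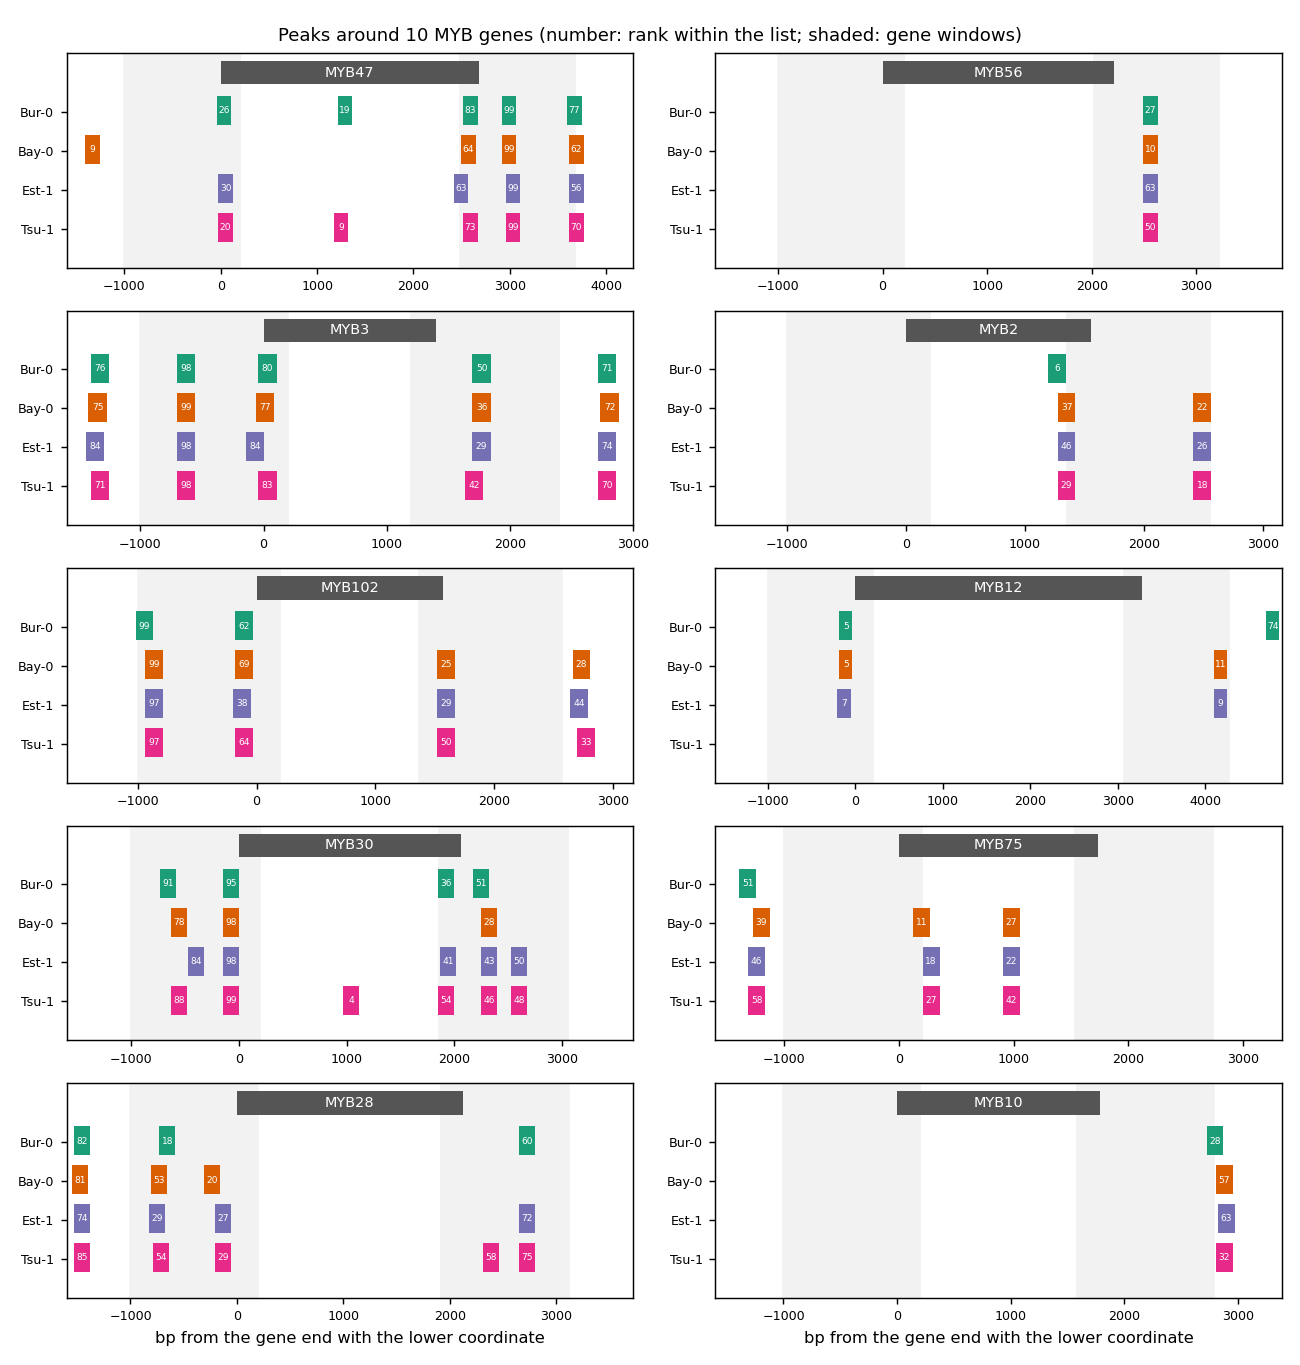
Peaks of the 4 accessions (coloured boxes, number: rank within the list) around 10 MYB genes (grey bars), by distance in bp from the gene end with the lower coordinate, with the gene windows shaded. At MYB10 and MYB75 peaks of several accessions fall just outside the shaded window, and at MYB56 the 4 peaks coincide.

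Open regions of MYB genes stood farther from the gene ends than those of other genes, as a description with no test. Without strand in the gene table, the start of a gene could not be separated from its other end. The median peak midpoint lay 510 bp outside the nearer gene end in all lists but Tsu-1, where it lay 494 bp outside, beside 204, 192, 200 and 206 bp over all genes. The most similar families also stood farther out than all genes, WRKY genes at 376, 298, 262 and 298 bp and NAC genes at 373, 294, 362 and 354 bp. WRKY genes are a family of defence and stress, and NAC genes one of stress and development. Midpoints within 400 bp outside the nearer end made up 31.9 to 35.2% of the gene-peak pairs of MYB genes, beside 46.4 to 46.6% over all genes. The share was 35.0 to 39.6% for WRKY genes and 41.5 to 44.7% for NAC genes. Midpoints inside the gene made up 9.70 to 12.1% for MYB genes, beside 16.7 to 17.8% of all genes. They were as few in NAC genes, at 7.58 to 11.9%, but not in WRKY genes, at 14.2 to 18.2%. Examples of strong sites beyond 500 bp are MYB102 (904 bp), MYB43 (950 bp), MYB91 (876 bp) and MYB3 (628 bp), whereas MYB30, MYB15 and MYB20 had their best regions within 150 bp of an end.

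The median space to the neighbouring genes was 5624 bp, beside 1855 bp over all genes, 4146 bp for WRKY genes and 3494 bp for NAC genes, and 96 of the 123 lay in the upper tercile of all genes by space, above 3067 bp. Within that tercile the medians of peak distance were 496 to 518 bp for MYB genes and 262 to 276 bp for all genes. That tercile holds most MYB genes and space was not matched within it, so the part of spacing in the distances was not tested. There 63 of 96 MYB genes (65.6%) were open in all 4 accessions, beside 53.0% of all genes. In the middle tercile the count was 9 of 22 (40.9%), beside 56.6% of all genes, and in the lowest 2 of 5 (40.0%), beside 51.4%.

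The share of open MYB genes against the background turned with the window, as given above. Of the 74 genes open everywhere in the window of 1000 bp, 31 (41.9%) left the count in the narrower one. Over all protein-coding genes the count open everywhere fell from 14733 to 12425. With the widest window, the gene plus 2000 bp at either end, 92 MYB genes (74.8%) were open in all 4, beside 63.3%. WRKY genes went from 70.4% (50 of 71) to 63.4% with the narrower window, and NAC genes from 66.0% (66 of 100) to 52.0%. No test of the difference between families was made.

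**Figure D5:**
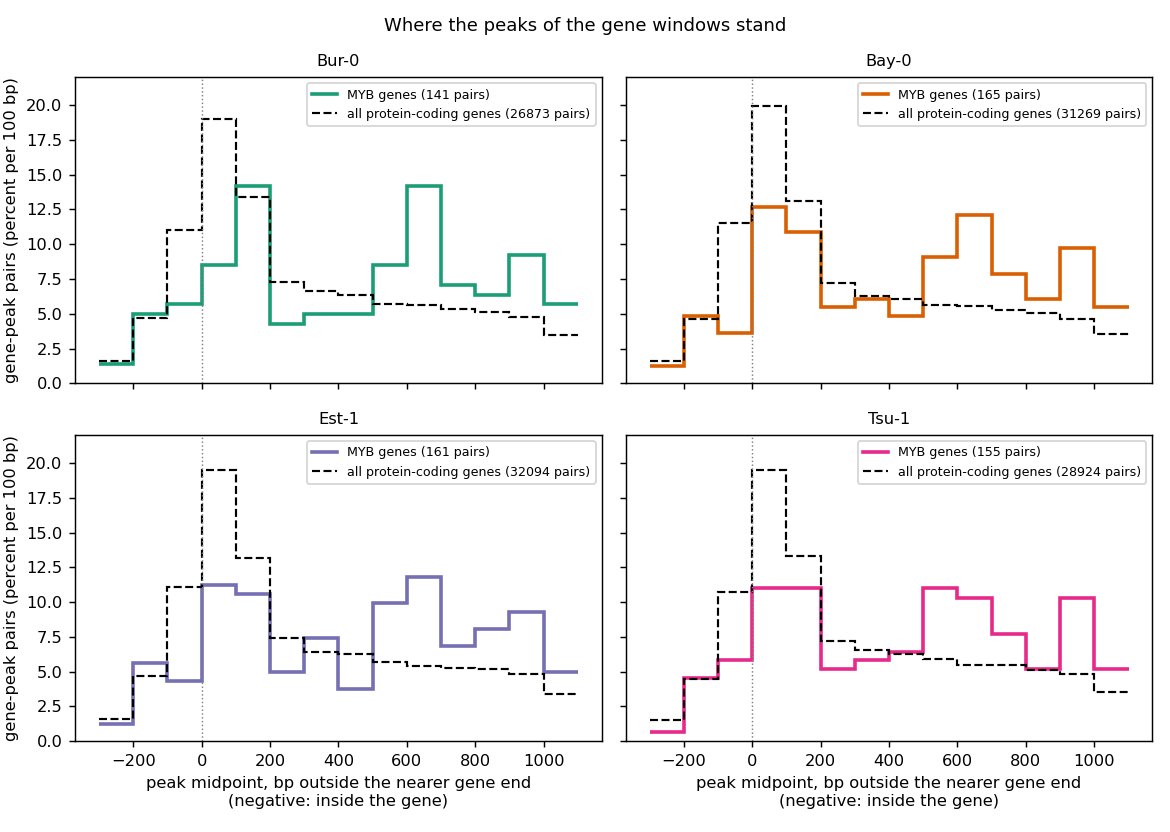
Distance of peak midpoints from the nearer gene end (bp, positive outside the gene, in steps of 100 bp) as a percentage of gene-peak pairs, for MYB genes (coloured line) and all protein-coding genes (dashed line) in each accession. All genes peak just outside the end, and MYB genes hold a larger share between 500 and 1000 bp.

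Counted by region, the share called in every list was close to that of all genes. Peaks of the 4 lists that met or overlapped were joined into regions. The windows of the 123 genes held 201 regions, of which 113 (56.2%, interval 49.1 to 63.2) were called in all 4 lists, beside 55.6% of the regions at protein-coding genes. Another 38 were in 3 lists (18.9%, beside 15.5%), 20 in 2 (9.95%, beside 12.4%) and 30 in 1 (14.9%, beside 16.5%). MYB genes had a mean of 1.63 regions, beside 1.41, and 32 of 123 had at least 3, beside 18.1% of all genes. The mean was also above that of all genes in WRKY genes, at 1.85, and in NAC genes, at 1.64. At least 3 regions were held by 31.0% of WRKY genes and 27.0% of NAC genes. Regions called in all 4 lists made up 68.5% of those of WRKY genes and 64.5% of those of NAC genes. Of the genes open everywhere, 21 of 74 (28.4%) had peaks of all 4 lists at both gene ends, beside 26.1%. For 20 of the 95 MYB genes with a peak (21.1%) every peak also fell in the window of another protein-coding gene, beside 51.2% of all such genes. They were MYB2, MYB8, MYB18, MYB27, MYB33, MYB36, MYB41, MYB42, MYB52 and MYB56, and further MYB58, MYB60, MYB72, MYB76, MYB80, MYB92, MYB100, MYB106, MYB107 and MYB117. Their ranks may belong to the other gene as well.

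The 28 MYB genes without a peak in their windows were not all far from open chromatin. The median distance from the window to the nearest peak of any list was 960.5 bp, and 5 of the 28 had such a peak within 300 bp. A peak inside the gene beyond the window was present at 2. These values were not computed over all genes. MYB83 was the nearest, at 124 bp in Tsu-1, and MYB123 the farthest. Absence from a list does not show that a site was closed, since reads that differ from the Col-0 reference can be lost in alignment, which was not tested here.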

How the data were processed

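Nuclei were treated with 45 units of DNase I for 3 minutes, per the labels' protocols. The submitters' processing notes name Bowtie 0.12.7 and the build TAIR10. For the peak caller, threshold and depth, nothing is given in the sources used here. Each list belongs to 1 library. The authors' signal, of unstated scaling, was only ranked within its own list. The deposited −log10 p was used to break ties.

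Gene names and ends came from a RefSeq table of assembly TAIR10.1 without strand or sequence, and its coordinates are not printed. Regions matched gene ends best at shifts of at most 100 bp on each of the 5 chromosomes, among shifts of up to 20000 bp. The planned comparison of gene starts with gene ends was not run. Space is the distance to both neighbouring protein-coding genes. The family, the 16 role lists (1 listed name, MYB125, was not matched), the windows and the rule for named genes were chosen with earlier results of these data known. That rule names the 10 genes with the highest lowest rank, all genes called in exactly 3 or 1 accessions, the 6 with the largest spread of rank, the 2 leading genes of each list, and the anthocyanin activators; other genes named by value were chosen after their values were seen. Window overlaps, regions and nearest genes were tested on simulated peaks. Python 3.11.15, pandas 2.3.3 and scipy 1.17.1 were used.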

Additional observations from a re-analysis of the deposited data

How the results depend on the processing

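Alternatives were other windows, the stronger 50% of each list, lists of equal length (25298 peaks), an overlap of at least 75 bp, peaks counted for the nearest gene end only, other name rules (113 genes by primary symbol, 129 with names such as MYB3R1) and each accession left out. MYB genes open in all 4 accessions numbered 43 with the narrower window (35.0%, beside 45.3% of all genes) and 38 with the stronger peaks (30.9%). Those open in none numbered 50 with the narrower window (40.7%, beside 33.7%) and 66 with the stronger peaks (53.7%). With the gene plus 2000 bp at either end they numbered 14 (11.4%, beside 18.8%). The order against all genes for genes open in none thus also turned in the narrower window. The stronger peaks left 25.4% of all genes open in all 4 and 57.5% in none. With the stronger peaks 43, 46, 53 and 48 were open in the 4 accessions, in the order used above, beside 31.2, 36.0, 36.2 and 32.9% of all genes, with median ranks of 81.9, 81.6, 78.2 and 75.7. The narrower window gave 50 in Bur-0 (beside 51.5% of all genes) and a median rank of 45.5 in Est-1. It also gave 15 genes called in exactly 3 accessions, for which no share over all genes was computed. Of the 98 genes of the role lists, 29 were open in all 4 with the narrower window (beside 45.3% of all genes) and 31 with the stronger peaks (beside 25.4%). The share of regions in every list was 42.4% with 75 bp of overlap and 67.7% without Bur-0, which compares 3 lists. Fewer peaks or a narrower window can only lower the counts open in all 4 or in an accession and raise those open in none. A wider window can only do the reverse. The size of the changes and the 15 genes called in exactly 3 accessions do not follow from this, and their causes were not tested. With the stronger peaks the median ranks could only rise, because ranks in the weaker part of each list were left out. For the ranks under the narrower window and for the region shares the cause was not tested. The other 92 of these main values under the alternatives stayed within 1.5 times or within the interval. Depth is unknown, so weak sites may be absent from a list for want of reads. No paired analysis was possible because each accession has 1 library.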

Other observations

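The 25 MYB genes on no role list included 17 open in all 4 accessions (68.0%, beside 53.7% of all genes). Open in none were 4 of them (beside 26.8%), MYB22, MYB50, MYB86 and MYB89. The genes of this paragraph were chosen after their values were seen. After MYB47, the highest were MYB109, at 84.8, 95.1, 94.9 and 87.1, MYB95 at 80.4 to 89.8 and MYB1 at 75.9 to 88.8. MYB78 was higher in Bur-0, at 78.8, than in the other lists, at 57.7, 54.7 and 63.3. MYB110 was lowest in Bur-0, at 35.7, with 46.9, 64.5 and 63.3 in the other lists.

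Neighbouring MYB genes did not always share their state. MYB118 and MYB21, with no gene between them and 14914 bp apart, were both open in all 4 accessions. MYB113 was open in all 4 and its neighbour MYB114, 2536 bp away, in none, and MYB29 was open in all 4 and MYB76 in 1. On chromosome 5, MYB23, MYB24 and MYB115 lay close together and had no call in any list. By chromosome, from 1 to 5, the share of MYB genes open in all 4 accessions was 55.2% (16 of 29), 46.2% (6 of 13), 71.4% (20 of 28), 70.6% (12 of 17) and 55.6% (20 of 36). The interval of each of the 5 holds 53.7%, the share of all genes.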
